A study of Mus musculus with 6 samples.

Results

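Of the 26982 genes in the deposited table, 10 were taken by gene name as the cyclins, cyclin-dependent kinases and activating phosphatase of the cleavage divisions: the cyclin genes Ccna2, Ccnb1, Ccnb2, Ccnd1, Ccnd2, Ccne1 and Ccne2, the kinase genes Cdk1 and Cdk2, and the phosphatase gene Cdc25a. Each name matched 1 row, and all 10 genes had enough reads to be tested. RNA had been sequenced from mouse 2-cell embryos cultured in KSOM, an embryo medium. In the Suv39h1wt group, zygotes had received wild-type Suv39h1 mRNA at 0.6 µg/µl by microinjection 18 h after the injection of mothers with hCG, which triggers ovulation; Suv39h1 encodes a methyltransferase for lysine 9 of histone H3. In the Suv39h1mut group they had received a mutant form of the mRNA at the same concentration and time, and the labels do not describe the mutation. The third group was not injected, so the injection itself and the mRNA injected cannot be told apart where that group is the baseline. Each group had 2 libraries, numbered 1 and 2, and the labels give neither the strain nor the number of embryos per library, nor whether the 2 libraries came from separate collections. The p-values therefore cover the spread between libraries, which may be technical.

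Depth over genes was 33497519 to 48572265 counts per library. Suv39h1, the injected gene, stood at 51.2 and 38.0 CPM in the Suv39h1wt libraries, 27.98 and 41.6 CPM in the Suv39h1mut libraries and 41.3 and 35.03 CPM in the non-injected libraries, and the 3 groups overlapped. CPM is the usual read count scaled to library size, here after trimmed mean of M-values (TMM) scaling between libraries. All 15 matched markers of oocyte-derived transcripts and all 8 matched markers of the transient 2-cell programme averaged at least 1 CPM. The summed level of 4 sperm markers was at most 1.91 CPM in any library. Per the labels every embryo had 2 cells. For any carried-over cells of other kinds, fewer cells and less RNA per cell cannot be told apart. CPM is relative within a library, so a change in total RNA per embryo would not show.

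Cyclins are the regulatory subunits that switch on cyclin-dependent kinases, and those of the A, B and E types are destroyed once per cycle. Cyclin D and cyclin E complexes drive cells towards DNA replication, cyclin A2 acts in replication and early mitosis, and the B cyclins with CDK1 form the activity that carries a cell into mitosis. CDC25 phosphatases remove the inhibitory phosphates that WEE1-family kinases place on the CDKs. In the early mouse embryo the first cleavages run partly on transcripts and proteins stored in the oocyte, and the 2-cell stage has a long G2 phase during which the embryonic genome is transcribed.

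The 10 genes spanned a wide range of levels. Per kb of the gene length in the deposited table, Ccna2 stood highest at 305 ± 71.0 CPM per kb, followed by Ccnb1 at 236 ± 53.5 and Ccne1 at 226 ± 80.0 CPM per kb (SD over the 6 libraries of all groups). Cdk1 was at 101 ± 29.55, Ccne2 at 58.5 ± 17.55, Ccnb2 at 35.95 ± 8.96 and Cdk2 at 10.6 ± 1.975 CPM per kb. The lowest were Cdc25a at 7.63 ± 5.43, Ccnd1 at 5.07 ± 7.20 and Ccnd2 at 0.220 ± 0.1965 CPM per kb. Library values of neighbours in this order overlapped everywhere except between Ccnb2, whose lowest library was at 21.4 CPM per kb, and Cdk2, whose highest was at 12.4. The lengths in the deposited table ran from 0.535 kb for Ccne2 to 5.70 kb for Ccnd2, and how they were defined is not given in the sources used here. For Ccne2, Ccne1 and Cdk1 they were 0.535, 0.628 and 0.695 kb, against exonic lengths of 3.495, 2.66 and 4.93 kb in GENCODE M21. For Ccnb2 the lengths were 1.54 and 1.53 kb. Levels per kb of different genes therefore depend on the lengths used. With exonic lengths from GENCODE M21, a choice made after the data were seen, Ccnb2 at 36.2 CPM per kb stood between Ccne1 and Cdk1, above Cdk1 at 14.3 and Ccne2 at 8.95 CPM per kb, and the order of the others among themselves was the same.

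**Figure D1:**
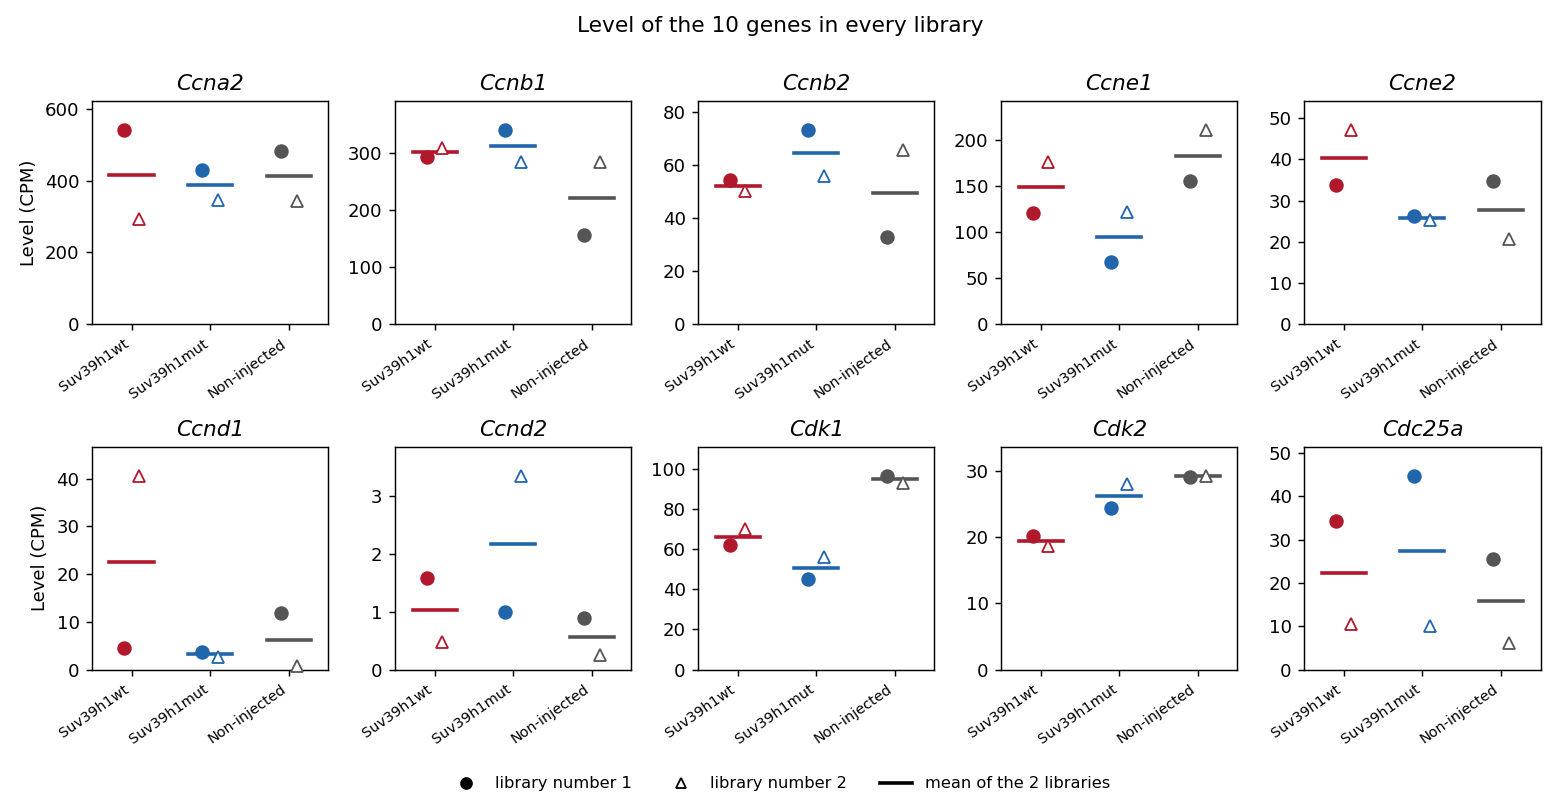
Level of each of the 10 genes in CPM (y axis from 0, a scale of its own per gene) in the 2 libraries of the Suv39h1wt, Suv39h1mut and non-injected groups; filled circles are libraries numbered 1, open triangles those numbered 2, and bars the mean of the 2. Cdk1 lies lower in all 4 injected libraries (45.1 to 70.0 CPM) than in the non-injected libraries (96.6 and 92.9 CPM). The share of all genes with this pattern was not computed. Cdc25a lies lower in the library numbered 2 of every group.

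Ccna2, the cyclin of replication and early mitosis (ENSMUSG00000027715, mm9 chromosome 3, 36463788 to 36471072), stood at 542 and 294 CPM in the Suv39h1wt libraries, 431 and 347 CPM in the Suv39h1mut libraries and 483 and 344 CPM in the non-injected libraries. The 3 groups overlapped, and the library numbered 1 was the higher one in each of them. The log2 fold change was 0.10 ± 0.47 for Suv39h1wt over Suv39h1mut, 0.02 ± 0.47 for Suv39h1wt over non-injected and -0.09 ± 0.47 for Suv39h1mut over non-injected (SE). Its locus overlaps that of Exosc9, an exosome subunit gene, by 864 bases in mm9, and Exosc9 had 34 to 295 counts per library beside 9751 to 28250 for Ccna2.

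Ccnb1, which encodes the main mitotic cyclin (ENSMUSG00000041431, mm9 chromosome 13, 101548605 to 101556525), was at 294 and 310.1 CPM in the Suv39h1wt libraries, 341 and 285 CPM in the Suv39h1mut libraries and 157 and 285 CPM in the non-injected libraries. The non-injected library numbered 1 was the lowest of all 6, while the non-injected library numbered 2 lay within the range of the injected ones. Ccnb1 had a log2 fold change of 0.45 ± 0.46 for Suv39h1wt and 0.50 ± 0.46 for Suv39h1mut over non-injected, and -0.05 ± 0.45 between the injected groups. Between libraries numbered 1 the differences from non-injected were 0.91 and 1.12 for Suv39h1wt and Suv39h1mut, and between libraries numbered 2 the Suv39h1wt difference was 0.12 and the Suv39h1mut library stood at the non-injected level (log2 CPM).

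Ccnb2, the second B-type cyclin (ENSMUSG00000032218, mm9 chromosome 9, 70255496 to 70269361), varied across the libraries much as Ccnb1 did. It was at 54.2 and 50.2 CPM in the Suv39h1wt libraries, 73.2 and 56.0 CPM in the Suv39h1mut libraries and 33.0 and 65.7 CPM in the non-injected libraries, and here too the non-injected library numbered 1 was the lowest of all 6. Both Suv39h1wt libraries were below both Suv39h1mut libraries, with a log2 fold change of -0.31 ± 0.51. The non-injected libraries lay on either side of both Suv39h1wt libraries, and the log2 fold change over non-injected was 0.08 ± 0.51 for Suv39h1wt and 0.39 ± 0.51 for Suv39h1mut. After each gene was centred on its own mean log2 CPM, Ccnb1 and Ccnb2 differed by a root mean square of 0.166 over the 6 libraries, the smallest distance between any pair of the 10 genes, while each varied with an SD of 0.40; this is a description of 6 libraries that share their depth and scaling.

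Reads of B-type cyclins may be split with near copies. Of the 31-base words in Ccnb1 transcripts of GENCODE M21, 27.8% were also in transcripts of other genes, and 22.9% in the pseudogene Ccnb1-ps alone. For the pseudogene Ccnb2-ps the Suv39h1wt libraries held 534 and 13 counts, the Suv39h1mut libraries 296 and 174 and the non-injected libraries 151 and 169, against 1294 to 3821 per library for Ccnb2. Ccnb2 transcripts shared 0% of such words with other genes of GENCODE M21. The Ccnb1 level is therefore uncertain by the reads that its copies took or gave.

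The promoters of this pair are printed because the genes varied together. They come from RefSeq (GRCm38.p6) and run from 250 bases before to 50 bases after the start site, in the direction of transcription. Promoters of 6 of the 10 genes were matched there, those of Ccnb1, Ccnb2, Ccne1, Cdk1, Cdk2 and Cdc25a; Ccna2, Ccnd1, Ccnd2 and Ccne2 were not. Capitals mark 3 kinds of words searched on both strands: the CCAAT box (letters CCAAT), the cell cycle genes homology region CHR (letters TTTGAA or, as its other form, TTTAAA) and E2F words (TTTGGCGC, TTTCCCGC, TTTCGCGC, TTTGCCGC). Among the 32851 promoters of that table, 37.4% held a CCAAT box, 11.7% at least 2 of them and 3.37% at least 3. A CHR word was held by 27.6%, at least 2 CHR words by 6.37% and an E2F word by 2.26%. The minus strand promoters were chr13:100786437-100786736 for Ccnb1 and chr9:70421505-70421804 for Ccnb2.
Ccnb1: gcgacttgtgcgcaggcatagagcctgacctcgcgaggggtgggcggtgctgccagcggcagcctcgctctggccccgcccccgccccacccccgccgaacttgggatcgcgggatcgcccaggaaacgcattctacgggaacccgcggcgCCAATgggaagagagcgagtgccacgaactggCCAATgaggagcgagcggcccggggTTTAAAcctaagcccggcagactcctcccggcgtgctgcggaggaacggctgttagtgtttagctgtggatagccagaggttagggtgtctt
Ccnb2: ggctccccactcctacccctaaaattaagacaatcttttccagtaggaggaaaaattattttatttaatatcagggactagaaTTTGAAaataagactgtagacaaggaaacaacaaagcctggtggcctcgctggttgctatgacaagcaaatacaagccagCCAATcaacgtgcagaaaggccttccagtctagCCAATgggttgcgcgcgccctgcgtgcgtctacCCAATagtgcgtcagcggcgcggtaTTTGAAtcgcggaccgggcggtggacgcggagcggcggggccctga
The Ccnb1 window held 2 CCAAT boxes, whose first bases lie 99 and 67 bases before the start site, and 1 CHR word at 42 bases before it. The Ccnb2 window held 3 CCAAT boxes, at 87, 54 and 21 bases before the start site, and 2 CHR words. The boxes of Ccnb1 and Ccnb2 all read in the forward direction. CCAAT boxes were not particular to this pair. The Cdk1 window held 3, the Cdc25a window 2 and the Cdk2 window 1. These are matches of letters in a window and show no binding.

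Ccne1, an E-type cyclin that activates CDK2 for replication (ENSMUSG00000002068, mm9 chromosome 7, 38883003 to 38892553), was at 121 and 176.5 CPM in the Suv39h1wt libraries, 66.9 and 121.7 CPM in the Suv39h1mut libraries and 155 and 211 CPM in the non-injected libraries. Both Suv39h1mut libraries were below both non-injected ones, and in every group the library numbered 2 was the higher. The log2 fold change was -0.96 ± 0.49 for Suv39h1mut over non-injected, with a 95% interval of -2.04 to 0.13 and an adjusted p of 0.880 in edgeR's quasi-likelihood test. It was 0.66 ± 0.49 for Suv39h1wt over Suv39h1mut and -0.30 ± 0.48 for Suv39h1wt over non-injected, where libraries overlapped. With the library number as a replicate block, the Suv39h1mut value was -1.002 ± 0.27 (edgeR adjusted p = 0.280).

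Ccne2, the other E-type cyclin (ENSMUSG00000028212, mm9 chromosome 4, 11118498 to 11131926), had another pattern than Ccne1. It was at 33.7 and 47.1 CPM in the Suv39h1wt libraries, 26.2 and 25.3 CPM in the Suv39h1mut libraries and 34.65 and 20.8 CPM in the non-injected libraries. Both Suv39h1wt libraries lay above both Suv39h1mut libraries, with a log2 fold change of 0.65 ± 0.55, while the non-injected pair spanned the Suv39h1mut values. The value over non-injected was 0.54 ± 0.55 for Suv39h1wt and -0.11 ± 0.55 for Suv39h1mut. The Ccne2 locus overlaps Ints8, an Integrator subunit gene, by 5622 bases in mm9, and 15.6% of the 31-base words of its transcripts are shared with Ints8, which had 1466 to 3999 counts per library; the counting of reads in that overlap is uncertain.

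D-type cyclins couple growth signals to CDK4 and CDK6, and Ccnd1 and Ccnd2 had the lowest levels per kb of the 10 genes. Ccnd1 also had the widest spread within a group, with 9.09 times between the Suv39h1wt libraries and 16.05 times between the non-injected ones. A further D-type cyclin gene outside the 10, Ccnd3, averaged 8.59 CPM and ran from 4.21 to 12.99 CPM over the 6 libraries. Ccnd1 (ENSMUSG00000070348, mm9 chromosome 7, 152115836 to 152125774) was at 4.47 and 40.65 CPM in the Suv39h1wt libraries, 3.735 and 2.645 CPM in the Suv39h1mut libraries and 11.8 and 0.735 CPM in the non-injected libraries, from 24 to 1349 counts. The Suv39h1wt library numbered 2 alone was far above the rest. The Ccnd1 locus overlaps that of Oraov1 by 818 bases in mm9, and Oraov1 had 353 to 1022 counts per library, more than Ccnd1 in 5 of 6 libraries, so the counts of Ccnd1 are uncertain there. The log2 fold change for Suv39h1wt over Suv39h1mut was 2.82 ± 1.33 (95% interval -0.14 to 5.79, edgeR adjusted p = 1), and 0.50 without Suv39h1wt replicate 2; without Suv39h1wt replicate 1 it was 3.70. Over non-injected it was 1.85 ± 1.29 for Suv39h1wt, and -0.47 without Suv39h1wt replicate 2.

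Ccnd2 (ENSMUSG00000000184, mm9 chromosome 6, 127075797 to 127101066) had only 8 to 158 counts per library, at 1.57 and 0.482 CPM in the Suv39h1wt pair, 0.996 and 3.34 CPM in the Suv39h1mut pair and 0.893 and 0.245 CPM in the non-injected pair. The Suv39h1mut library numbered 2 was the highest. The log2 fold change was -1.07 ± 1.67 for Suv39h1wt over Suv39h1mut, 0.85 ± 1.67 for Suv39h1wt over non-injected and 1.92 ± 1.71 for Suv39h1mut over non-injected. The interval of that last value, -1.88 to 5.72, covers both a fall and a large increase.

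Ccnd1 and Ccnd2 are also made by cumulus and granulosa cells, the somatic cells around the oocyte, so the 15 matched markers of those cells are given beside them. Their summed level was 36.6 and 33.3 CPM in the Suv39h1wt libraries, 31.4 and 48.2 CPM in the Suv39h1mut libraries and 44.0 and 43.2 CPM in the non-injected libraries. Of the 15, Fshr, Amh, Inha and Lhcgr had at most 8 counts in any library and 8 averaged at least 1 CPM. Amhr2 was the highest of them, at 13.9 to 32.8 CPM. Foxl2 had 224 counts in the Suv39h1wt library numbered 2, where Ccnd1 was highest, and at most 1 in every other library. Inhba, Has2 and Star had 0 counts in that Suv39h1wt library. The part of cumulus and granulosa cells in the Ccnd1 and Ccnd2 values was not tested.

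Cdk1, the kinase of mitosis (ENSMUSG00000019942, mm9 chromosome 10, 68799383 to 68815686), was lower in every injected library than in either non-injected library. It stood at 62.1 and 70.0 CPM in the Suv39h1wt libraries, 45.1 and 56.05 CPM in the Suv39h1mut libraries and 96.6 and 92.9 CPM in the non-injected libraries. The libraries within a group differed by at most 1.24 times, and none of the 3 groups overlapped. Of all genes tested, 27.4% did not overlap between Suv39h1wt and Suv39h1mut, 34.4% between Suv39h1wt and non-injected and 35.4% between Suv39h1mut and non-injected. The share of all genes that separated as Cdk1 did, over all 3 groups, was not computed. The log2 fold change over non-injected was -0.52 ± 0.45 for Suv39h1wt and -0.91 ± 0.45 for Suv39h1mut, and that of Suv39h1wt over Suv39h1mut was 0.38 ± 0.44. The Suv39h1mut value had a 95% interval of -1.90 to 0.09 and an edgeR adjusted p of 0.880. Without any 1 library it ran from -1.06 to -0.75, and it was negative each time. With the replicate block it was -0.91 ± 0.31 (edgeR adjusted p = 0.381). Summed markers of the 2-cell programme were also higher with injection. The sums were 597 and 763 CPM with Suv39h1wt, 557 and 462 CPM with Suv39h1mut and 297 and 329 CPM without injection. Zfp352 made up most of each sum, at 351 to 593 CPM with injection against 199 and 268 CPM without. Tdpoz3 and Tdpoz4 overlapped between injected and non-injected libraries, Tdpoz4 at 13.0 to 30.5 CPM against 32.8 and 17.5 CPM. Markers of oocyte-derived transcripts summed to 5715 and 3640 CPM with Suv39h1wt, 5128 and 3766 CPM with Suv39h1mut and 3150 and 2715 CPM without injection. Zp3 among them was instead lower in every injected library, at 16.2 to 31.7 CPM against 43.8 and 56.2 CPM. The part of both marker lists in the Cdk1 values was not tested.

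Cdk2, the kinase that pairs with cyclins E and A (ENSMUSG00000025358, mm9 chromosome 10, 128134995 to 128142107), varied least of the 10 genes, with a highest library 1.57 times the lowest. It was at 20.2 and 18.7 CPM in the Suv39h1wt libraries, 24.5 and 28.1 CPM in the Suv39h1mut libraries and 29.1 and 29.4 CPM in the non-injected libraries. The 3 groups did not overlap, a pattern not counted over all genes, and the order of the injected groups was the opposite of that for Cdk1. The log2 fold change was -0.44 ± 0.55 for Suv39h1wt over Suv39h1mut, -0.59 ± 0.55 for Suv39h1wt over non-injected and -0.15 ± 0.55 for Suv39h1mut over non-injected.

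Ratios of 2 genes within a library do not depend on the scaling between libraries, and 2 of them, chosen after the values were seen, are given as descriptions. The ratio of Cdk1 to Cdk2 CPM was 3.07 and 3.74 in the Suv39h1wt libraries, 1.84 and 1.99 in the Suv39h1mut libraries and 3.32 and 3.16 in the non-injected libraries, so both Suv39h1mut libraries were below the other 4. The ratio of Ccnb1 to Ccne1 CPM was 2.43 and 1.76 in the Suv39h1wt libraries, 5.09 and 2.34 in the Suv39h1mut libraries and 1.01 and 1.35 in the non-injected libraries. All 4 injected libraries had more Ccnb1 relative to Ccne1 than either non-injected library.

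By the same centred distance, the member nearest to Cdk1 was Ccne1, at 0.271, and the gene nearest to Cdk1 among 75 candidates, the other 9 members and 66 further cell cycle genes averaging at least 1 CPM, was E2f2, at 0.209. The nearest to Ccne1 was Anapc2 at 0.153, to Ccna2 Anapc1 at 0.192, to Cdk2 E2f4 at 0.204, to Ccne2 Anapc4 at 0.265 and to Cdc25a Wee2 at 0.395. The nearest to Ccnd2 was Plk4 at 0.80 and the nearest to Ccnd1 was Cdc26 at 1.36. The promoters of Cdk1 (chr10:69352863-69353162) and Ccne1 (chr7:38107441-38107740), both on the minus strand of GRCm38.p6, are printed in the same way, as the other pair of members that lay nearest to each other.
Cdk1: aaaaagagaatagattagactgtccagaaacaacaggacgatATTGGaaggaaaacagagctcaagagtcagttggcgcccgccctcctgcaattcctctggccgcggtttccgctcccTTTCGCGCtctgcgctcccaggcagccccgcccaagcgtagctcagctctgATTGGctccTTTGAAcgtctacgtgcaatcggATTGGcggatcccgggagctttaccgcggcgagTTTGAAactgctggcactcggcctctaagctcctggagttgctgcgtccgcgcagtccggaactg
Ccne1: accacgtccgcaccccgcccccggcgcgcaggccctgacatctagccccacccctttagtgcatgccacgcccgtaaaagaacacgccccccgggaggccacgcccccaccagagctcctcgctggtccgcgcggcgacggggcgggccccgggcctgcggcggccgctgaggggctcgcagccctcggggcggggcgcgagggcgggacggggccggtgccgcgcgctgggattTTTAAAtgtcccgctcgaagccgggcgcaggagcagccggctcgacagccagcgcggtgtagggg
The Cdk1 window held 3 CCAAT boxes, all on the reverse strand, 2 CHR words and 1 E2F word, TTTCGCGC. The Ccne1 window held 1 CHR word, 15 bases before the start site, with no match for the CCAAT box or for the E2F letters searched.

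None of the 10 genes was called in any comparison of groups, by edgeR or by DESeq2. In edgeR, 0 of 17638 genes (0%) passed an adjusted p of 0.05 for Suv39h1wt over Suv39h1mut, and likewise 0 for each injected group over non-injected. DESeq2's Wald test called 44 genes (0.317% of those with an adjusted p) for Suv39h1wt over Suv39h1mut, 284 (1.91%) for Suv39h1wt over non-injected and 59 (0.396%) for Suv39h1mut over non-injected, with 0 of the 10 among them each time. At an unadjusted p under 0.05, edgeR counted 0 of the 10 genes in each comparison, against 2.72%, 6.16% and 4.43% of all genes in those 3 comparisons. With the replicate block it counted 1 of 10, Ccne1, for Suv39h1wt over Suv39h1mut (4.02% of all genes), 0 for Suv39h1wt over non-injected (10.2%) and 2, Ccne1 and Cdk1, for Suv39h1mut over non-injected (9.98%). DESeq2 counted 1 of the 10, Ccnd1, for Suv39h1wt over Suv39h1mut and 0 in the other comparisons, against 6.03%, 11.2% and 8.54% of all genes. Every 95% interval of the 10 genes in the 3 comparisons reached a log2 fold change of 1 or -1, so no gene is shown to be the same between groups.

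**Figure D2:**
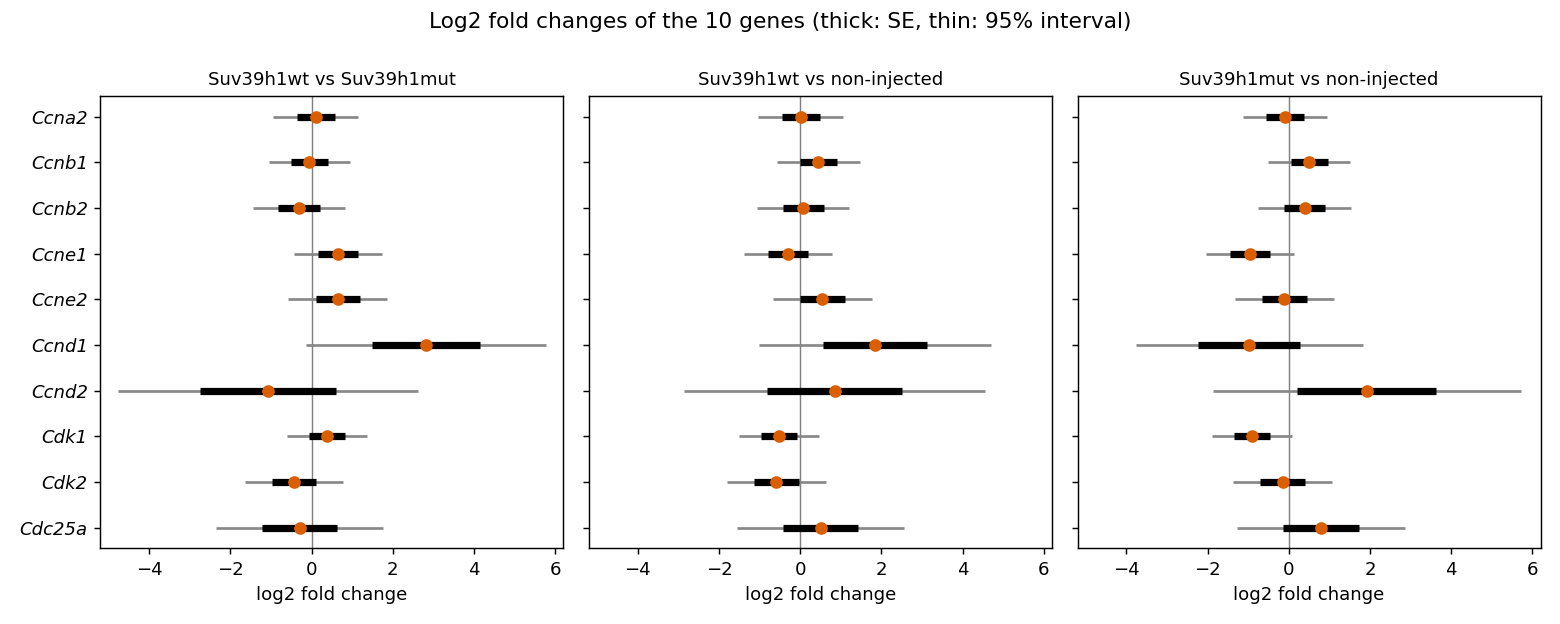
Log2 fold change (x axis) of each of the 10 genes in 3 comparisons, with the SE as a thick bar and the 95% interval as a thin bar, from edgeR's fit of the 6 libraries. Every interval includes 0; the Cdk1 interval for Suv39h1mut over non-injected ends at 0.09 and the Ccne1 interval at 0.13, and Ccnd1 and Ccnd2 have the widest intervals.

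Libraries of the 2 groups did not overlap for 5 of the 10 genes between Suv39h1wt and Suv39h1mut, where 27.4% of all genes tested did not: Ccnd1, Ccne2 and Cdk1 were higher and Ccnb2 and Cdk2 lower in both Suv39h1wt libraries. Between Suv39h1wt and non-injected the count was 3 of 10 (Ccnb1 higher, Cdk1 and Cdk2 lower), beside 34.4% of all genes. Between Suv39h1mut and non-injected it was 4 of 10 (Ccnd2 higher, Ccne1, Cdk1 and Cdk2 lower), beside 35.4%. The last 2 shares are near the background, and the 2 comparisons use the same non-injected libraries. The median log2 fold change of the 10 genes was 0.03, 0.27 and -0.10 in these 3 comparisons, and that of all genes was -0.01, 0.02 and 0.02. In the authors' deposited table, whose test is not given in the sources used here, the 10 genes had log2 ratios of Suv39h1wt over Suv39h1mut from -0.55 for Ccnd2 to 1.76 for Ccnd1. The smallest adjusted p of the 10 in the authors' deposited table was 0.309, for Ccnd1, and 58 of 14950 genes there were under 0.05.

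Cdc25a, which encodes an activating phosphatase of CDK2 and CDK1 (ENSMUSG00000032477, mm9 chromosome 9, 109778083 to 109796392), differed with the number of the library and not detectably with the injection. The library numbered 2 was at 10.5 CPM against 34.2 CPM in number 1 for Suv39h1wt, at 10.0 against 44.8 CPM for Suv39h1mut, and at 6.06 against 25.5 CPM for non-injected embryos. It was thus lower in number 2 in 3 of 3 groups, with log2 differences of -1.70, -2.16 and -2.065. In the fit with group and library number as factors, the log2 fold change of number 2 over number 1 was -1.98 ± 0.41 (edgeR adjusted p = 0.0334; DESeq2 adjusted p = 2.82e-05). The edgeR call was lost without Suv39h1mut replicate 1 (adjusted p = 0.2375), non-injected replicate 1 (0.137) or non-injected replicate 2 (0.0571), at log2 fold changes of -1.90, -1.92 and -1.94.

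Summed levels of oocyte-derived transcripts and of blood markers also differed in the same direction between the numbers in all 3 groups. Other lists had no shared direction. The 2-cell programme summed to 763 CPM in number 2 against 597 CPM in number 1 for Suv39h1wt, 462 against 557 CPM for Suv39h1mut and 329 against 297 CPM for non-injected embryos. Cumulus and granulosa markers were higher in number 2 for Suv39h1mut only. Sperm markers were lower in number 2, at sums of 1.91 CPM or less. The 15 oocyte-derived transcripts summed to 3640 CPM in number 2 against 5715 CPM in number 1 for Suv39h1wt. The sums were 3766 against 5128 CPM for Suv39h1mut and 2715 against 3150 CPM for non-injected embryos. The 15 transcripts did not move as a set. Dppa3 had the largest drop, at 789 against 2537 CPM, 928 against 2059 CPM and 740 against 1485 CPM in the same order of groups. Oosp1, H1foo, Zar1 and Npm2 were instead higher in number 2 in all 3 groups. Oosp1 was at 871 against 424.5 CPM, 1020 against 452 CPM and 557 against 225 CPM. The 5 matched blood markers, of which 3 averaged at least 1 CPM, summed to 11.9 CPM in number 2 against 3.18 CPM in number 1 for Suv39h1wt. The sums were 13.9 against 0.977 CPM for Suv39h1mut and 21.95 against 4.90 CPM for non-injected embryos. Cd74 made up most of the number 2 sum for Suv39h1mut (10.4 CPM) and non-injected embryos (14.6 CPM), and was at 0 CPM in number 2 for Suv39h1wt. Hba-a1 and Hba-a2 were higher in number 2 in all 3 groups, Hba-a1 at 6.54 against 1.92 CPM, 2.35 against 0.594 CPM and 4.56 against 2.81 CPM. The part of these marker lists in the values of Cdc25a and the other genes that differ with the number was not tested.

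Cdc25a was 1 of 10 genes called by edgeR for library number, where 551 of 17638 genes (3.12%) were called, 252 higher and 299 lower in number 2; DESeq2 called 15.9% of genes and the same 1 of the 10. The labels do not say what the number marks. Ccna2 was also lower in number 2 in 3 of 3 groups, with a log2 fold change of -0.56 ± 0.19 that missed the threshold (edgeR adjusted p = 0.167). Ccne1 was higher in number 2 in 3 of 3 groups, at 0.62 ± 0.22 (edgeR adjusted p = 0.180). Of all genes tested, 21% were lower and 18.1% higher in number 2 in all 3 groups, and 2 and 1 of the 10 genes were. Over non-injected embryos the log2 fold change of Cdc25a was 0.50 ± 0.93 for Suv39h1wt and 0.79 ± 0.93 for Suv39h1mut. With the replicate block these values were 0.61 ± 0.49 and 0.77 ± 0.49, and between the injected groups it was -0.29 ± 0.93 without the block and -0.16 ± 0.49 with it.

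**Figure D3:**
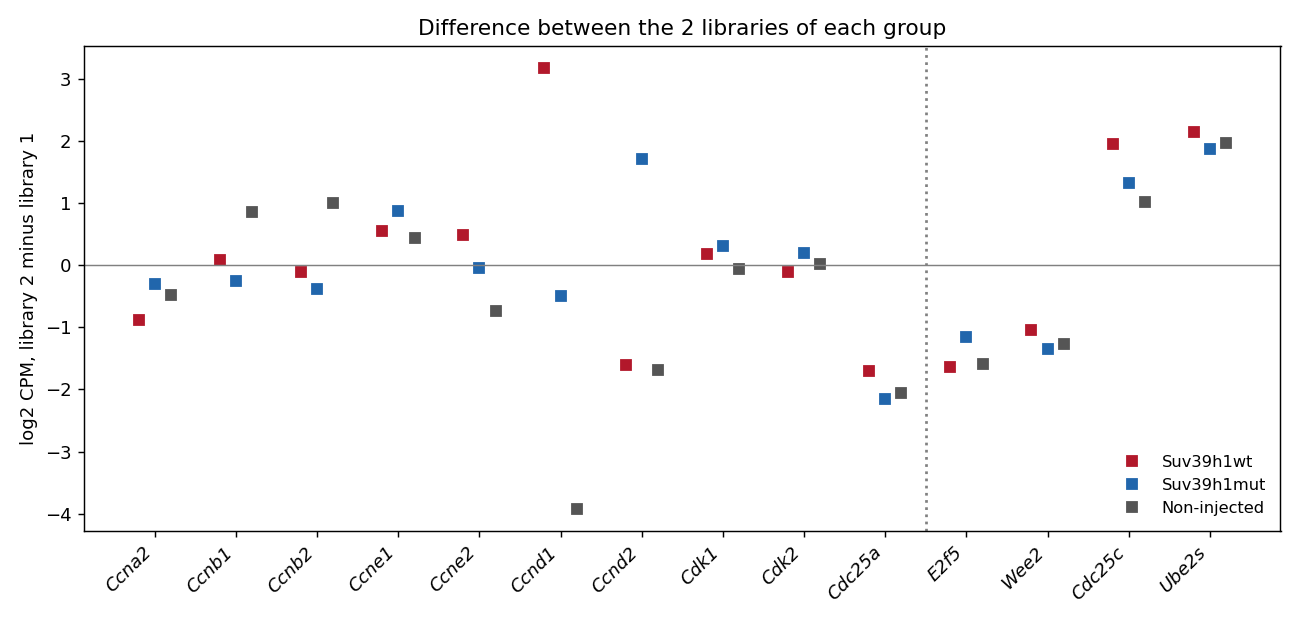
Difference in log2 CPM between the libraries numbered 2 and 1 of each group (y axis; 0 is no difference) for the 10 genes and, right of the dotted line, the 4 further cell cycle genes called by edgeR for library number. Cdc25a, E2f5 and Wee2 lie below 0 and Cdc25c, Ube2s and Ccne1 above 0 in all 3 groups, while Ccnd1 runs from -3.92 in non-injected to 3.17 in Suv39h1wt embryos.

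Further genes of cell cycle control were taken from a list of 72: other cyclins and CDKs, CDK inhibitors, the other CDC25 phosphatases, WEE1-family kinases, RB and E2F factors, the anaphase-promoting complex (APC/C), SCF ubiquitin ligases, mitotic kinases and checkpoint kinases. Of these 69 were tested; Ccna1 and Bora were not matched by name, and Cdkn2d, a CDK4 and CDK6 inhibitor gene, had at most 8 counts. In edgeR 0 of 69 were called in each comparison of groups, and an unadjusted p under 0.05 was reached by 3 of them for Suv39h1wt over Suv39h1mut (all positive), 4 for Suv39h1wt over non-injected (all positive) and 5 for Suv39h1mut over non-injected (4 positive, 1 negative). These are 4.35%, 5.8% and 7.25% of the list, beside 2.72%, 6.16% and 4.43% of all genes. With the replicate block the counts were 5 (all positive), 16 (12 positive, 4 negative) and 17 (12 positive, 5 negative), or 7.25%, 23.2% and 24.6% of the list beside 4.02%, 10.2% and 9.98% of all genes, and again 0 were called. DESeq2 called 1 of 69 for Suv39h1wt over Suv39h1mut, Anapc13, and 0 in the other comparisons. The medians of the 69 were 0.00, 0.13 and -0.15 in log2 fold change.

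The named genes of this list are those called and those with the smallest p in each direction; none of those named for the comparisons of groups passed edgeR's adjusted threshold. Both comparisons over non-injected embryos use the same baseline libraries. Cks2, a small CDK-binding protein of mitosis, was at 376 and 330.3 CPM in the Suv39h1wt libraries, 396 and 381 CPM in the Suv39h1mut libraries and 118 and 214 CPM in the non-injected libraries, with log2 fold changes over non-injected of 1.09 ± 0.46 and 1.23 ± 0.46 (edgeR adjusted p = 0.753 and 0.880). Chek1, the kinase of the replication checkpoint that restrains CDC25 phosphatases, stood at 187 and 172 CPM with Suv39h1wt, 229 and 139 CPM with Suv39h1mut and 93.3 and 71.5 CPM without injection, with log2 fold changes over non-injected of 1.12 ± 0.46 and 1.16 ± 0.46. For both genes all 4 injected libraries were above both non-injected ones. Both were named for a small p in these comparisons, so this separation is no separate evidence. The share of all genes with it was not computed. Libraries of Suv39h1wt and non-injected embryos did not overlap for 34.4% of all genes tested, and those of Suv39h1mut and non-injected embryos for 35.4%. Plk4, the kinase that starts centriole duplication, had a log2 fold change of 1.198 ± 0.45 for Suv39h1mut over non-injected, and Cdc16, an APC/C subunit, had 2.02 ± 0.73 for Suv39h1wt over non-injected.

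On the lower side over non-injected embryos, the mitotic kinase genes Plk1 and Aurka had log2 fold changes of -1.35 ± 0.64 and -1.09 ± 0.56 in Suv39h1wt, and the RB-like factor Rbl2 and the E2F-family repressor E2f7 had -1.90 ± 1.00 and -1.18 ± 0.68 in Suv39h1mut. Cdc20, the APC/C activator that triggers the loss of cyclin B in mitosis, stood at 65.2 and 101.4 CPM with Suv39h1wt, 22.9 and 49.9 CPM with Suv39h1mut and 58.35 and 194 CPM without injection. Its log2 fold change was -1.79 ± 0.66 for Suv39h1mut over non-injected and 1.195 ± 0.65 for Suv39h1wt over Suv39h1mut. Between the injected groups, Anapc13, an APC/C subunit, had 4.56 ± 1.545, E2f7 1.78 ± 0.69, Plk1 -0.98 ± 0.64 and Rbl1 -1.15 ± 0.90. Anapc13 was at 1.82 and 22.5 CPM in the Suv39h1wt libraries against 0.709 and 0.317 CPM in the Suv39h1mut libraries, with the Suv39h1wt library numbered 2 the high one (DESeq2 adjusted p = 0.0498, edgeR adjusted p = 1). E2f3, an E2F activator, averaged 1.08 CPM and was named as well, at 0.0192 and 0.0301 CPM with Suv39h1wt, 3.83 and 0 CPM with Suv39h1mut and 2.27 and 0.337 CPM without injection; it was too low in most libraries for a fold change.

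Along the library number, 4 of the 69 genes were called in edgeR, 2 higher and 2 lower in number 2. Ube2s, an E2 enzyme of the APC/C, rose by 1.99 ± 0.24 (adjusted p = 0.00422 in edgeR), and Cdc25c, the CDC25 phosphatase known for mitotic entry, by 1.42 ± 0.27 (adjusted p = 0.0244 in edgeR). The transcription factor gene E2f5 fell by 1.46 on the log2 scale (SE 0.20, edgeR adjusted p = 0.00716). Wee2, the oocyte form of the WEE1 kinase that opposes CDC25, fell by 1.23 (SE 0.18, edgeR adjusted p = 0.0101). Cdc25a, Wee2 and E2f5 were thus lower, and Cdc25c and Ube2s higher, in the libraries numbered 2; Cdc20 and Nek2, at 1.16 ± 0.28 and -1.11 ± 0.28, did not pass in edgeR (adjusted p = 0.0597 and 0.0634) but did in DESeq2 (adjusted p = 0.00229 and 0.00526). DESeq2 called 14 of the 69, 8 higher and 6 lower in number 2, beside its 15.9% of all genes.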

How the data were processed

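RNA had been amplified from 2 ng of total RNA with random and poly-T primers, per the labels' protocols. Reads had been processed with CASAVA 1.8.2, TopHat2 2.0.14, Bowtie and HTSeq 0.6.1 on mm9, per the submitters' processing notes; annotation release and strand setting are not given in the sources used here, so reads where genes overlap are uncertain. Per the file headers, the deposited raw read counts cover 26982 genes in 6 libraries. The deposited signal values, the authors' normalized counts, equalled the raw count over 1 size factor per library, and their ratio to the authors' per-kb values gave the gene lengths. The authors' deposited log2 ratios and p-values were used only as a description. The number of per-sample columns without a sample was 0.

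Counts were tested with edgeR 4.0.16 in R 4.3.3: robust quasi-likelihood F test across all genes, TMM scaling, filterByExpr with a minimum count of 10 (17638 genes), with group as the factor, leaving 3 residual degrees of freedom. Genes were called at a p under 0.05 after Benjamini-Hochberg adjustment over all of them. DESeq2 1.42.0, other scalings, no filter, a replicate block and leaving out each library were alternatives. The biological coefficient of variation was 0.8615. Fits were tested on simulated data. Named further genes are those called and, per comparison and direction, the 3 of smallest p at a mean of at least 1 CPM. Distances used log2 CPM with a prior count of 2.

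Deviations of same-numbered libraries correlated at 0.196, 0.141 and 0.167 between the 3 pairs of groups over all genes tested. Over the 6820 genes above 10 CPM the correlations were 0.5005, 0.472 and 0.473. The number was therefore used as a block in an alternative. The labels do not state such a pairing, and genes are not independent. The 10 genes and the lists were chosen with earlier results of these data known. Repeat element tables were not used here.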

Additional observations from a re-analysis of the deposited data

How the results depend on the processing

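Of 430 alternative values of the 10 genes' log2 fold changes, 391 kept their direction and their side of the threshold, 36 turned sign and 3 lost a call; no gene of the 10 gained one. None of those that turned sign was called. With no filter on low counts, edgeR called 18 genes for Suv39h1wt over Suv39h1mut, 33 for Suv39h1wt over non-injected, 9 for Suv39h1mut over non-injected and 1005 for library number, and DESeq2 called 44, 284, 59 and 2428; DESeq2 also called 1 further cell cycle gene for Suv39h1wt over Suv39h1mut. Leaving out each library in turn gave 0 to 18, 0 to 44 and 0 to 1 genes in the 3 comparisons of groups, the highest counts without Suv39h1wt replicate 1 in the first pair of them, and 221 (without Suv39h1mut replicate 1) to 760 genes (without Suv39h1mut replicate 2) for library number, with 0 to 1 of the 10. The replicate block turned Ccna2 for Suv39h1wt over non-injected to -0.0224 and changed no call between groups; DESeq2 and its size factors in edgeR each turned that value to -0.00198. Upper-quartile scaling turned Ccna2 for Suv39h1mut over non-injected to 0.0227 and Cdk2 for library number to -0.0664. Without 1 library, log2 fold changes of Suv39h1wt over Suv39h1mut ran from -0.38 to 0.49 for Ccna2, -0.16 to 0.0882 for Ccnb1, -2.14 to 0.0607 for Ccnd2 and -1.36 to 1.17 for Cdc25a. For Suv39h1wt over non-injected they ran from -0.46 to 0.41 for Ccna2, -0.27 to 0.67 for Ccnb2, -0.47 to 5.01 for Ccnd1, -0.22 to 2.12 for Ccnd2 and -0.57 to 1.94 for Cdc25a. For Suv39h1mut over non-injected they ran from -0.31 to 0.22 for Ccna2, -1.88 to 2.16 for Ccnd1, -0.43 to 0.36 for Ccne2 and -0.65 to 2.22 for Cdc25a. For library number they ran from -0.10 to 0.46 for Ccnb1, -0.25 to 0.43 for Ccnb2, -2.24 to 1.36 for Ccnd1, -1.80 to 0.0463 for Ccnd2, -0.43 to 0.22 for Ccne2 and -0.0775 to 0.10 for Cdk2. The causes were not tested. Where a group is left with 1 library, that library is assumed to vary like the other groups. Depth limits Ccnd2 most, at 8 to 158 counts, and Ccnd1 at 24 to 1349; the others had at least 198 counts in every library.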

Other observations

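Among the further cell cycle genes, the 18 measured genes of the anaphase-promoting complex (APC/C), the ubiquitin ligase that marks cyclins for destruction, and its regulators had a median log2 fold change of 0.49 for Suv39h1wt over Suv39h1mut, with 13 positive and 5 negative. For Suv39h1mut over non-injected the median was -0.50, with 6 positive and 12 negative, and for Suv39h1wt over non-injected it was 0.10, with 11 positive and 7 negative. These comparisons share libraries. Of all 17638 genes tested, 8699 were positive for Suv39h1wt over Suv39h1mut, 8960 for Suv39h1wt over non-injected and 8946 for Suv39h1mut over non-injected. The 4 checkpoint kinase genes, Chek1, Chek2, Atm and Atr, had medians over non-injected of 0.625 for Suv39h1wt, with 4 of 4 positive, and 0.83 for Suv39h1mut, with 3 of 4 positive. For Suv39h1wt, Atm at 0.02 ± 0.49 and Chek2 at 0.13 ± 0.82 (SE) were near 0. The CDC25 phosphatase genes apart from Cdc25a, Cdc25b and Cdc25c, had medians over non-injected of -0.82 for Suv39h1wt and -0.57 for Suv39h1mut. In each group 1 of these genes lay near 0. Cdc25b was at -1.44 ± 1.19 for Suv39h1wt and -0.08 ± 1.17 for Suv39h1mut, and Cdc25c at -0.20 ± 0.70 and -1.06 ± 0.71 (SE). The values thus show no clear shared direction. No gene of these lists passed the adjusted threshold of edgeR between groups, and DESeq2 called Anapc13 among them for Suv39h1wt over Suv39h1mut.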
